A study of Arabidopsis thaliana with 2 samples.

Results

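The genes described here are 9 loci of gibberellin perception in Arabidopsis thaliana, out of 27444 nuclear protein-coding genes. They are the 5 DELLA repressors GAI (AT1G14920), RGA (AT2G01570), RGL1 (AT1G66350), RGL2 (AT3G03450) and RGL3 (AT5G17490), the 3 receptors GID1A (AT3G05120), GID1B (AT3G63010) and GID1C (AT5G27320), and the F-box protein gene SLY1 (AT4G24210). They were chosen by name, and each was searched for listed peaks and summits inside its bounds or within 1000 bp of either end. The data come from chromatin immunoprecipitation followed by sequencing (ChIP-seq) with an antibody against green fluorescent protein (GFP). The first library is from p35S::IBH1-GFP plants, in which the viral 35S promoter, broadly active in plant tissues, drives the helix-loop-helix protein IBH1 fused to GFP. The second is from p35S::GFP plants, in which the same promoter drives GFP alone. Both lines are in the Col-0 ecotype, and whole untreated seedlings were collected 10 days after sowing. Tissues and cell types were therefore not separated, and the tagged protein was made from a transgene and not from its own promoter. DNA of 3 ChIP experiments was pooled into 1 library per line, so no value below has a replicate error and no test between the lines was possible. Groups follow the line entries of the labels, although one title has IBL1, another helix-loop-helix gene, in place of IBH1, and the protocol for the libraries calls the control Col-0.

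Gibberellin is a growth hormone that acts by removing repressors. The GID1 proteins bind the hormone and then bind DELLA proteins, nuclear regulators of the GRAS family that restrain growth. The SLY1 F-box protein brings the bound DELLA protein to a ubiquitin ligase, which marks it for the proteasome. In Arabidopsis seedlings DELLA proteins also bind and hold back growth-promoting transcription factors of the brassinosteroid and light pathways. IBH1 acts in the same elongation network as a repressor of cell elongation, by pairing with growth-promoting bHLH proteins. How often these loci carried listed peaks, read here as those of IBH1-GFP, is the question addressed here.

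Of the 9 genes, 4 had a listed summit inside their bounds or within 1000 bp, and over all protein-coding genes 12.7% did (3499 of 27444). These were RGL1, RGL2, RGL3 and SLY1. In RGL1, RGL2 and RGL3 the summit lay inside the gene itself, and over all protein-coding genes 7.05% held a summit inside. No summit lay within 1000 bp of the DELLA genes RGA and GAI or of the receptor genes GID1A, GID1B and GID1C. By role, 3 of 5 DELLA genes, 0 of 3 receptor genes and the F-box gene were counted. The genes are few and were named with earlier results of these data known, so the counts describe this list of peaks and no test was made on them.

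**Figure D1:**
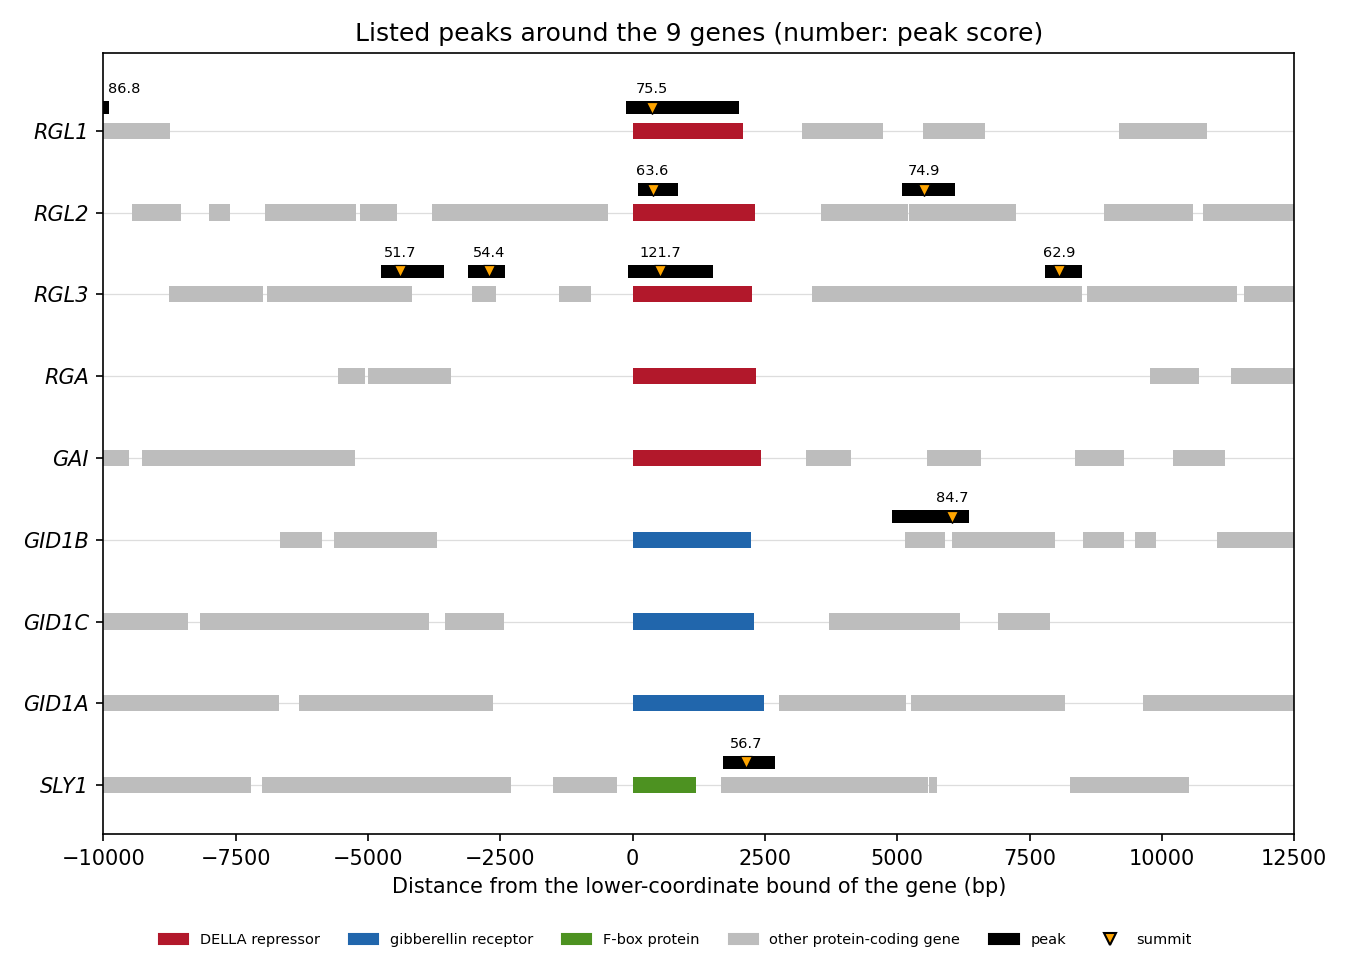
The map shows peaks (black bars), their summits (orange triangles) and their scores around each of the 9 genes, against distance in bp from the lower-coordinate bound of the gene, within 10 kb of its bounds. Colored boxes are the 9 genes and grey boxes other protein-coding genes. Peaks lie over RGL1, RGL2 and RGL3, and none lies in the windows of RGA, GAI, GID1C and GID1A. The summit of the peak cut off at the left edge of the RGL1 row lies outside the window.

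RGL3, a DELLA gene known in Arabidopsis for its part in jasmonate responses, carried the peak with the highest score of the 4. On chromosome 5 it ran from 5763908 to 5765503 (all coordinates are TAIR9), scored 121.71 and had 27 stacked fragments at its summit, 5764506. The score is the peak caller's own and grows as its p-value falls. It was above that of 85.5% of the 2944 nuclear peaks, whereas the height equalled the median of the list, 27. The peak was 1596 bp wide, wider than 92.9% of peaks, and covered 67.1% of the gene.

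RGL1, a DELLA gene that acts in germination and in flowers, had the widest and tallest of the 4 peaks. On chromosome 1 the peak ran from 24747979 to 24750113, scored 75.48 and reached 31 fragments at 24748475. Its score lay near the middle of the list, above 53.6% of peaks. Its width of 2135 bp exceeded that of 98.1% of peaks, against a median width of 885 bp. The peak covered 2009 of the 2082 bp of RGL1, or 96.5%. Among the 1934 genes that held a summit, the median share covered was 32.9%, and 94.2% of them were covered less than RGL1.

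RGL2, the main DELLA repressor of seed germination, had a low summit. On chromosome 3 its peak ran from 819442 to 820202, scored 63.63 and reached 18 fragments at 819713. Only 2.41% of the nuclear peaks had a lower summit, and 34.8% had a lower score. The peak was 761 bp wide and lay wholly within RGL2, covering 32.9% of it, at the median of genes that held a summit.

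The summits of RGL1, RGL2 and RGL3 were 370 bp, 376 bp and 517 bp from the nearer end of the gene, which was the lower-coordinate one in each, in genes of 2082, 2316 and 2258 bp. As shares of gene length these are 17.8%, 16.2% and 22.9%. Among all genes that held a summit, the distance to the nearer end had a median of 341 bp and quartiles of 168 and 595 bp, a range that takes in all 3 values, so the place of these summits was not unusual for the list. The gene table gives neither strand nor exons, so it was not determined whether this end is the start of the gene, or whether a summit is exonic. No other annotated gene overlapped the 3 summits.

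**Figure D2:**
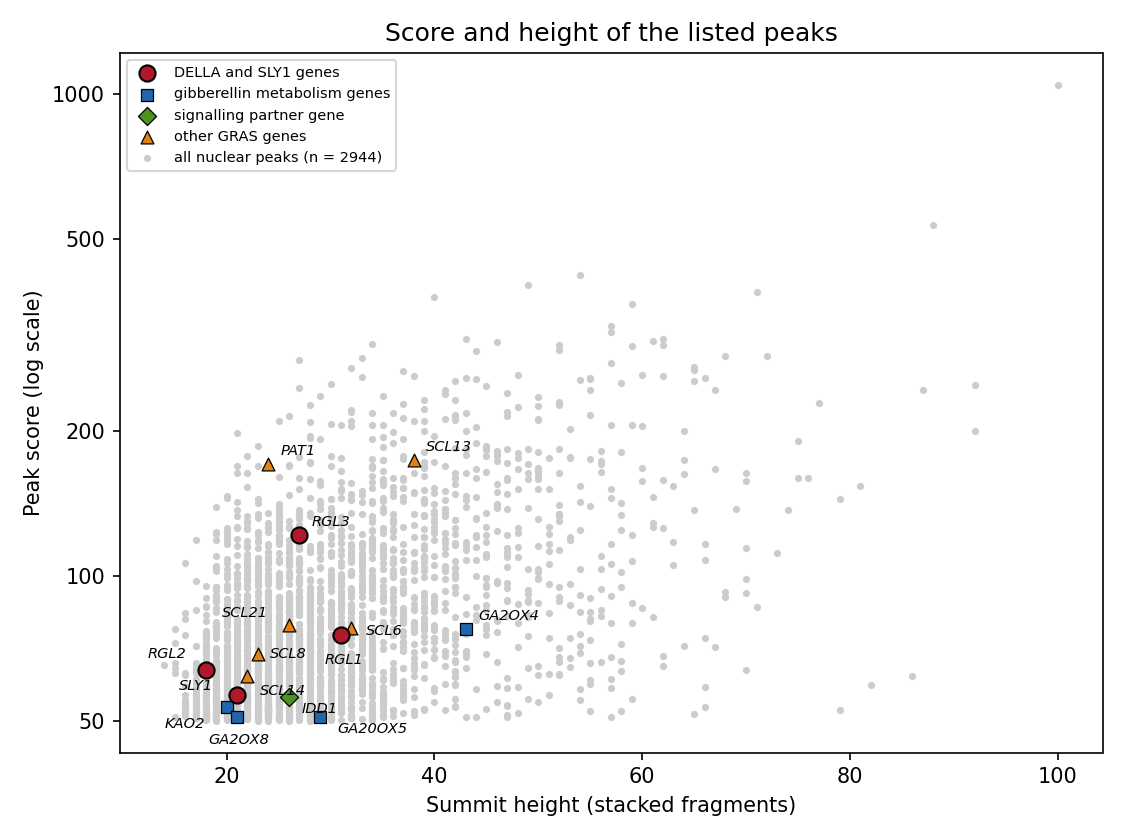
Each point is 1 listed peak, plotted by the height of its summit in stacked fragments (x axis) and its score (y axis, log scale). Grey points are all 2944 nuclear peaks, and marked points are peaks counted for the 9 genes and for the other gene lists. RGL3 stands above RGL1, RGL2 and SLY1 in score, while RGL1 has the tallest summit of these 4.

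Score and height ordered the 4 peaks differently. By score the order was RGL3 (121.71), RGL1 (75.48), RGL2 (63.63) and SLY1 (56.68), and by height RGL1 (31 fragments), RGL3 (27), SLY1 (21) and RGL2 (18). Among the 136 nuclear peaks of the same height as that of RGL3, scores ran from 50.14 to 280.15 with a median of 73.96, and 87.5% were lower than that of RGL3. The RGL2 peak scored above 67.5% of the 80 peaks of its own height, whose median score was 58.12. The RGL1 peak scored above 46.2% of the 91 peaks as tall as it, and that of SLY1 above 31.1% of 151. Without a second library, the differences between these peaks have no error.

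SLY1, which encodes the F-box subunit that targets DELLA proteins for breakdown, was counted only through its neighbour. The summit lay 946 bp outside SLY1, just within the limit of 1000 bp, and inside VEP1 (AT4G24220), the next gene, whose bounds begin 463 bp beyond SLY1. The next gene of the 9 beyond the limit was GID1B, at 3785 bp. On chromosome 4 the peak ran from 12564980 to 12565971, scored 56.68, where no listed peak scored under 50.01, and reached 21 fragments at 12565428. Its near edge was 498 bp from SLY1, so no part of the peak overlapped the gene. Counting each summit for its nearest protein-coding gene only, SLY1 dropped out and the 3 RGL genes were left.

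RGA and GAI, the DELLA genes known as the main repressors of stem elongation, had no listed summit within 10 kb. For RGA the nearest was 34086 bp away, inside PAHX, where the peak scored 108.09 and was 32 fragments high. For GAI it was 130790 bp away, on chromosome 1 at 5018192, in a peak that scored 59.2 and was 27 fragments high. The nearest protein-coding gene of that summit was DECOY, 1484 bp from it. Over all protein-coding genes the nearest summit was a median of 13766 bp away, with quartiles of 4194 and 34276 bp. The distance of RGA was longer than that of 74.8% of genes, just under the upper quartile, and that of GAI longer than 97.5%. No summit lay within 100 kb of GAI, which was so for 4.35% of all genes. Their immediate neighbours had none within 1000 bp either.

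The receptor genes differed widely among themselves in distance. The nearest summit to GID1B lay 3785 bp away, on chromosome 3 at 23295271, in a peak from 23294148 to 23295590 that scored 84.65 and was 29 fragments high. It was 14 bp from MBD4 and 128 bp from AT3G63020, the gene next to GID1B, and the near edge of the peak was 2662 bp from GID1B. For GID1C the nearest summit was 11731 bp away, 181 bp from AT5G27280, in a peak scoring 87.2 with 24 fragments. For GID1A it was 103965 bp away, inside AT3G04830, in a peak scoring 54.92 with 21 fragments. That distance was longer than those of 96.0% of all genes, while GID1B and GID1C, at 23.6% and 45.8%, were closer to a summit than the median gene. With scores of 100 or more the nearest summit was 311495 bp from GID1B and 89321 bp from GID1C. Weaker peaks than the authors' threshold are not listed, so these genes cannot be called free of IBH1-GFP.

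**Figure D3:**
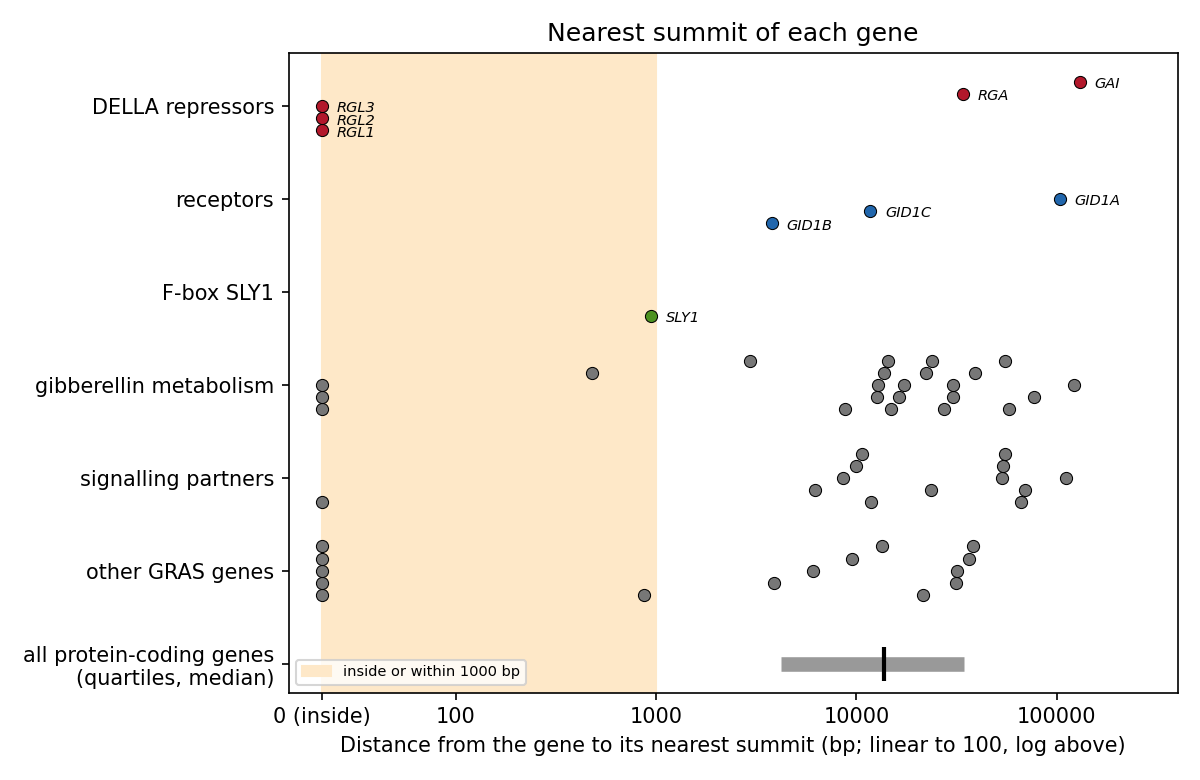
Each point is 1 gene, plotted by the distance in bp from its bounds to the nearest summit (linear to 100 bp, log above), with rows for the DELLA, receptor and SLY1 genes and the other lists. The bar at the bottom gives the quartiles and the tick the median of all protein-coding genes, 13766 bp. Among the 9 genes, RGL1, RGL2 and RGL3 sit at 0, while GAI and GID1A lie farthest, at 130790 and 103965 bp.

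Over the 9 genes the median distance was 3785 bp, that of GID1B. The surroundings of the genes varied as well. RGL3 had 3 summits within 5 kb, a number reached by 0.918% of all protein-coding genes. Besides its own, these lay 2710 bp away in AT5G17470 (score 54.42, height 18) and 4390 bp away in AT5G17460 (score 51.67, height 24), both weaker in score than the peak over RGL3. RGL2 had a second summit 3193 bp away, inside CYP89A9, scoring 74.91 with 37 fragments, both above those of its own peak. RGL1 had no other summit within 10 kb. Within 100 kb there were 8 summits for RGL1, 7 each for RGL3 and SLY1, 5 for RGL2, 3 for RGA, 14 for GID1C, 2 for GID1B and 0 for GAI and GID1A, against a median of 4 over all genes.

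The share of neighbouring genes with a summit also varied among the 9 genes. Among protein-coding genes within 1 Mb, leaving out the gene itself, 16.0% had a summit within 1000 bp around RGL1, 12.9% around SLY1, 8.23% around RGL3 and 6.23% around RGL2. Around the genes without a summit the shares were 21.8% for GID1C, 17.5% for RGA, 9.33% for GID1B, 6.78% for GID1A and 3.87% for GAI. GID1C thus lay in the most densely occupied surroundings of the 9 and GAI in the least. The part of these surroundings in the counts above was not tested.

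Genes that make and break down gibberellin had summits at 4 of 23 loci (17.4%), beside the 12.7% of all genes. KAO2 (AT2G32440), which encodes an oxidase of an early step, held a summit on chromosome 2 at 13777648 (score 53.49, 20 fragments). GA20OX5 (AT1G44090), of the GA 20-oxidase family, held one on chromosome 1 at 16761336 (score 50.99, 29 fragments). GA2OX4 (AT1G47990), of the GA 2-oxidases that inactivate the hormone, held one on chromosome 1 at 17699992 (score 77.72, 43 fragments). For GA2OX8 (AT4G21200), of the same inactivating family, the summit was 478 bp outside, inside RP1 (score 50.99, 21 fragments). By step, these are 1 of 5 genes of early synthesis, 1 of 5 GA 20-oxidases, 0 of 4 GA 3-oxidases, which make the active hormone, and 2 of 9 inactivation genes. None of the 4 peaks scored 100 or more. Such a peak was counted for 0 of the 23 genes and for 3.38% of all genes. In a list this short, 0 is close to that share. Of the 9 genes above only RGL3 had such a peak.

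Among partners of the pathway, 1 of 13 genes (7.69%) had a summit, beside the 12.7% of all genes. IDD1 (AT5G66730), a zinc finger gene of the INDETERMINATE DOMAIN family, held a summit on chromosome 5 at 26643537 (score 56.08, 26 fragments). The glycosyltransferase genes SPY and SEC, whose products modify DELLA proteins, were 53420 bp and 66445 bp from a summit. ASK1, CUL1 and RBX1, subunits of the ubiquitin ligase that SLY1 joins, were between 6194 and 54068 bp away. SNE (AT5G48170, listed as SLY2), the F-box relative of SLY1, was 8601 bp from its nearest summit, which lay inside the GRAS gene PAT1.

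The wider GRAS family, to which the DELLA genes belong, had summits at 6 of 15 relatives whose names the gene table bears (40.0%), and at 7 of 26 (26.9%) with the 11 codes that it does not name so, beside the 12.7% of all genes. The 15 exclude the DELLA genes. The median distance to a summit was 6055 bp over the 15 GRAS relatives, 16221 bp over the 23 metabolism genes and 23569 bp over the 13 partners, against 13766 bp over all genes. SCL13 (AT4G17230), of the branch that acts in phytochrome signalling, held the peak with the highest score, 174.13, with a height of 38, on chromosome 4 from 9660974 to 9662943. PAT1 (AT5G48150), of phytochrome A signalling, held one on chromosome 5 from 19522351 to 19524221 that scored 170.91 with 24 fragments. Both scored higher than RGL3, and higher than 95.0% and 94.6% of the nuclear peaks. SCL21 (AT2G04890, score 78.89, height 26), SCL8 (AT5G52510, 68.94, height 23) and SCL14 (AT1G07530, 61.96, height 22) also held summits, that of SCL21 where its bounds overlap AT2G04900. For SCL6 (AT4G00150, listed as HAM3), of the group that maintains shoot meristems, the summit was 867 bp outside (score 77.79, 32 fragments). Of the 11 codes not named so in the table, AT2G37650 alone had a summit within 1000 bp, inside its bounds (score 68.41, 18 fragments).

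Inside these GRAS genes the distance from the summit to the nearer end was 2.76% of gene length in SCL21, 12.3% in SCL8, 25.3% in SCL13, 33.3% in SCL14 and 43.9% in PAT1. The values of RGL1, RGL2 and RGL3, 16.2% to 22.9%, lay within this range. GRAS genes with no summit within 1000 bp included SCR and SHR, the regulators of root patterning, at 36335 bp and 31871 bp, and SCL3, which acts with DELLA proteins in gibberellin responses, at 38336 bp.

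**Figure D4:**
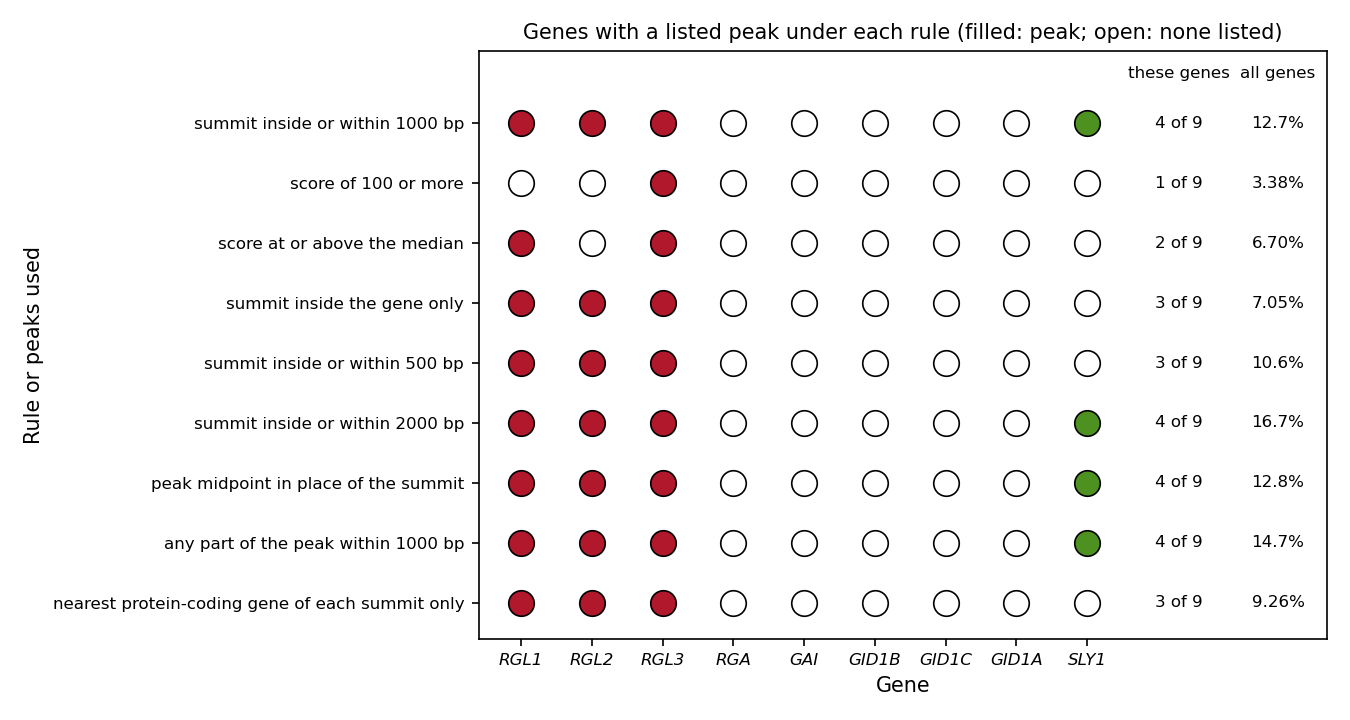
Filled circles mark which of the 9 genes have a listed peak under each rule or choice of peaks, and open circles those with none listed. The columns at the right give the count of the 9 and the share of all protein-coding genes under the same rule. RGL3 is filled in every row, and RGA, GAI and the receptor genes in none.

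RGL3 was counted under the rule used here and all 8 others tried, and RGL1 under all of these except a score of 100 or more. RGL2 was lost at scores of 100 or more, where 1 of the 9 genes was left against 3.38% of all genes, and at or above the median score, 72.83, where 2 of 9 were left against 6.70%. Counting each summit for its nearest gene only gave 3 of 9 against 9.26%, and summits within 500 bp gave 3 of 9 against 10.6%. Summits within 2000 bp gave 4 of 9 against 16.7%, peak midpoints 4 of 9 against 12.8%, and any part of a peak within 1000 bp 4 of 9 against 14.7%. Among protein-coding genes of 2000 to 2500 bp, a length class that takes in all 9 genes except SLY1, 13.3% had a summit inside or within 1000 bp and 7.39% held one inside. The list names no sample, so what GFP alone gives at these loci cannot be read from it. The control library's part in these peaks was not tested.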

How the data were processed

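Per the labels, DNA from 3 ChIP experiments per line was pooled and amplified with 18 PCR cycles, and plants grew at 22 °C with 16 h of light. The submitters' processing notes name the build TAIR9 and the tools CASAVA 1.8.2, Bowtie and MACS. The depth is unknown, because read totals, like settings and the use of the control library, are not given in the sources at hand. The authors deposited 1 list of 2945 peaks with a score for each and 1 list of summits with a signal, the height of stacked fragments. Neither names a sample, and they are read as IBH1-GFP peaks because the series is about IBH1. A MACS score is the −log10 of the p-value of a peak, times 10. The 1 mitochondrial peak was left out.

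Python 3.11.15 with numpy 2.4.6 and pandas 2.3.3 computed distances from summits to gene bounds of a RefSeq table of the TAIR10.1 assembly. Printed coordinates are the authors' TAIR9 ones, counted from 1. On each of the 5 chromosomes more summits lay in genes (65.2% to 70.3%) than after shifts of 2000 or 5000 bp either way (51.9% to 63.7%). The distance computation was tested on simulated data. No sequence was used here. The 9 genes and the lists were chosen with earlier results of these data known. Of 63 codes in the other lists, 12 whose symbol the table does not bear were left out, 11 of them GRAS genes. Named are the 9 genes, list genes with a summit within 1000 bp, and the genes nearest to or beside the summits of the 9. List genes named without a summit, and genes at farther summits, were chosen after their values were seen. The share of all genes with a summit, 12.7%, has an exact 95% interval of 12.4% to 13.1%, which covers counting error only. Alternatives changed the score minimum, the window, the point that stands for a peak and the assignment to genes.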

Additional observations from a re-analysis of the deposited data

How the results depend on the processing

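The count of 4 of the 9 genes was 1 with scores of 100 or more, beside 3.38% of all genes. At or above the median score it was 2, beside 6.70%. It stayed at 3 or 4 under the other 6 alternatives, where the share of all genes ran from 7.05% to 16.7%. RGA, GAI, GID1A, GID1B and GID1C had no summit under any of the 8. Much of this was fixed in advance. The summits of RGL1, RGL2 and RGL3 lie inside the genes, so changes of window had to keep them. GID1B, the closest of the genes never counted, was 3785 bp from a summit and 2662 bp from a peak edge, beyond every window tried. Under the same 2 score limits the 4 gibberellin metabolism genes became 0 and 1, the 1 partner gene became 0 and 0, and all genes with a summit went down to 927 and 1840, with fewer peaks by construction. The 6 GRAS relatives became 2 with scores of 100 or more and 4 at or above the median score. All genes with a summit numbered 1934 for summits inside genes only, where the window is narrower. The GRAS and partner counts with the unmatched codes, 7 of 26 and 1 of 14, and the share in the length class were chosen after seeing the data. With midpoints in place of summits each of the 9 distances moved by under 1000 bp. With scores of 100 or more the nearest summit was 24534 bp from RGL1, 78749 bp from RGL2, 61581 bp from SLY1, 311495 bp from GID1B, 89321 bp from GID1C, 470245 bp from GAI and 530804 bp from GID1A, while RGA and RGL3 kept their distances. At or above the median score it was 3193 bp from RGL2, 61581 bp from SLY1, 153849 bp from GAI and 382894 bp from GID1A, and the other 5 distances were as before. No paired analysis was possible because only 1 library exists per line. The planned motif counts and protein identities were not run, since no sequence was at hand. The depth is unknown, so a gene without a listed peak may hold a weaker one.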
